A study of Rattus norvegicus with 8 samples.

Results

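The data described here come from the lung endothelial cells of 4 saline-treated rats, out of 8 rats in the study. The animals were Sprague-Dawley rats of 8 to 10 weeks with no other treatment or allele named in the labels, and each received saline under the skin. The lungs were taken 5 days later and digested with collagenase, and cells were pulled out on magnetic beads carrying an antibody to CD31. RNA was taken from the cells on the beads with no time in culture. The other 4 rats received monocrotaline at 60 mg/kg and are not analysed here. Samples were chosen by their saline label, with 1 array per rat, and the rats are called 1 to 4 by the replicate number in that label. The labels call the material primary pulmonary endothelial cells and give no purity and no cell number.

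Endothelium lines the lung's arteries, capillaries, veins and lymphatics, and most of it lies in the capillary bed where gas is exchanged. That bed holds general capillary cells, which carry receptors for growth and repair signals, and aerocytes, which spread thinly against the alveolar epithelium. CD31, the product of Pecam1, sits at endothelial cell borders and is also carried at lower levels by leukocytes and platelets. The marker lists used below therefore cover endothelial subtypes together with stromal, epithelial and blood cells of the lung.

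Each gene was read as the processed signal of its brightest probe, on a log2 scale with the 75th percentile of all probes on that array set to 0. This value is called the scaled log2 signal, so 1 unit is a doubling. The percentile rank of a gene among all 26895 genes on the same array is called its brightness percentile. Brightness depends on the probe and its labelling as well as on the transcript, so a percentile shows how bright a gene's spot was and sets no order of transcript number between genes. Differences between rats on the same probe do not carry the probe's part of that limit, but can carry differences in labelling between arrays. With 1 group there was no comparison to test, and all values are descriptions with no p-value. Nothing in the labels beyond the replicate number describes the individual rats, and 4 arrays limit the precision of every mean. In RNA from a cell mixture, fewer cells of a type and less RNA per cell cannot be told apart. Some values below are also given without 1 rat. For a given gene or set of genes, leaving out a rat can only narrow the range between rats or keep it.

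The scanner's software flags spots that are well above background, and between 66.2% and 72.3% of genes passed on each array, and 17389 of 26895 genes (64.7%) passed on all 4. A further 6763 genes (25.1%) were well above background on none. No spot was saturated. All 4 arrays lay on 1 slide and were scanned on 1 day. The days of cell isolation and labelling are not given in the sources used here. Rat 2 had the lowest 75th percentile of processed signal, 1042, against 1735, 1880 and 1715 in rats 1, 3 and 4. The 5 brightest spike-in probes, which read RNA added in equal amount, lay 3.42 log2 units above that percentile in rat 2 and 2.94 to 2.97 above it in the other rats. Across all genes the 6 pairs of arrays had Pearson's r between 0.977 (rats 2 and 3) and 0.990 (rats 1 and 2), where genes are not independent replicates.

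All 6 core endothelial markers were well above background on all 4 arrays, and the list had a median brightness percentile of 98.5 ± 0.44 (SD, n = 4). Plvap, the protein of the diaphragms that span caveolae and fenestrae, had scaled log2 signals of 7.08, 7.44, 7.75 and 7.53 in rats 1 to 4. Kdr, the main VEGF receptor, had 6.29, 6.45, 6.74 and 6.72. Plvap was the brightest gene of the array outside ribosomal protein genes and provisional names, and Kdr was also among the brightest 20. Cldn5, a tight junction protein, had 5.52, 5.26, 5.52 and 5.86. Pecam1, whose product the beads bind, had 5.16, 5.32, 5.28 and 5.79. Both were highest in rat 4 and both stayed above the 98th percentile as a mean over the arrays. Tie1, a receptor tyrosine kinase of endothelium, had 2.23, 1.41, 2.22 and 2.36. Cdh5, the cadherin of endothelial junctions, had 1.35, 1.55, 1.93 and 2.03. These last markers had mean percentiles of 87.7 (Tie1) and 85.8 (Cdh5). Tie1 had the widest range of the 6, 0.95 log2 units, with rat 2 apart from the other rats. None of the 6 reached a 2-fold range.

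**Figure D1:**
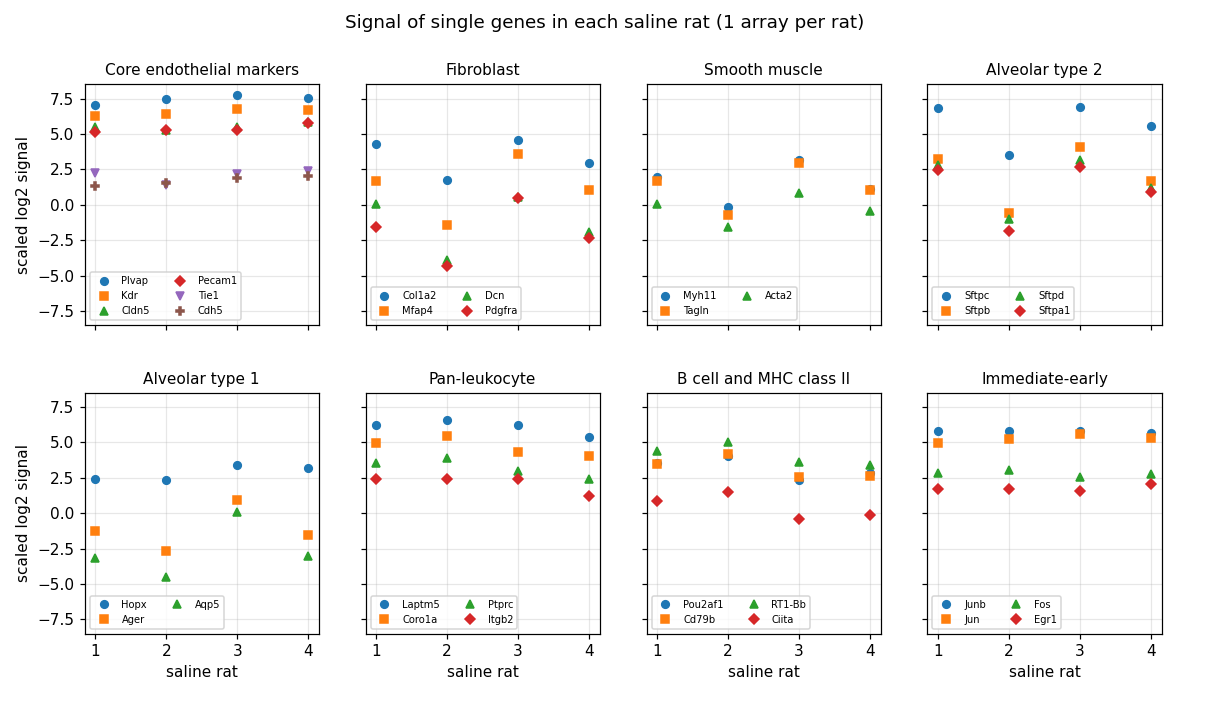
Scaled log2 signal (y axis; 0 is the array's 75th percentile) of single genes in saline rats 1 to 4 (x axis), 1 point per gene and array, in 8 panels by cell type. Core endothelial markers have ranges up to 0.95 (Tie1) and the immediate-early genes up to 0.60 (Jun). The fibroblast, smooth muscle and surfactant genes dip in rat 2 and peak in rat 3.

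The other endothelial lists were bright as well. Over all 12 endothelial lists 123 genes were measured, 118 were well above background on all 4 arrays and 0 were below it on all 4. Over all genes those shares were 64.7% and 25.1%. Of these 123 genes, 49 had a mean brightness percentile of 90 or more, where 9.90% of all genes did, and 90 had 75 or more, where 24.9% did. Among the 20 measured pan-endothelial genes beyond the core, the median percentile was 95.0 ± 0.85 (SD, n = 4). Cd93, a C-type lectin-like receptor, had 5.44, 5.29, 5.43 and 6.13 in rats 1 to 4. Clec14a, a related adhesion receptor, had 5.16, 5.11, 5.27 and 5.71, and Cyyr1 had 4.78, 4.60, 4.98 and 4.93. The dimmest of the list was Cd34, a sialomucin, at a mean percentile of 62.0. In 19 of the 20 genes rat 4 was the highest, where rat 4 was the highest in 27.2% of all genes above background on all 4 arrays.

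Transcription factors of endothelium were less bright, with a median percentile of 84.2 ± 1.07 (SD, n = 4) over 16 genes. Klf4, a flow-responsive factor, had 4.03, 4.23, 4.32 and 4.52. Erg, an ETS factor that maintains endothelial identity, had 3.68, 3.84, 3.90 and 4.53. Epas1, the hypoxia-inducible factor 2 alpha, had 3.42, 3.50, 3.90 and 4.05. All 3 were highest in rat 4, as were 12 of the 16 members. The steadiest endothelial genes of all lists were 2 members of this one, Elk3 and Ets1, with ranges of 0.14 and 0.17 log2 units. Lyl1, a factor shared with blood-forming cells, had the widest range of the list, 1.25, and was highest in rat 2. Sox17 was the dimmest member, at a mean percentile of 49.2.

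Genes of caveolae had a median percentile of 95.4 ± 0.74 (SD, n = 4), and all 9 were well above background on all 4 arrays. Cavin2, a caveolar coat protein, had 5.76, 6.48, 6.10 and 6.06, and Cav1, the main caveolar scaffold, had 5.67, 5.61, 5.70 and 6.17. Cavin2 was highest in rat 2 and Cav1 in rat 4. Among 15 vasoactive and haemostasis genes the median percentile was 80.4 ± 0.96 (SD, n = 4). Thbd, thrombomodulin, had 5.81, 5.80, 6.07 and 6.27. Anxa2, a surface receptor for plasminogen and its activator, had 5.58, 5.80, 5.38 and 5.59. Ramp2, part of the adrenomedullin receptor, had 4.47, 4.33, 4.70 and 5.06. The widest member was Procr, the protein C receptor, with 0.74, 0.28, −0.55 and 0.50, lowest in rat 3.

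The BMP and TGF-beta receptors and their targets had a median percentile of 78.0 ± 0.62 (SD, n = 4) over 12 genes. Acvrl1, the type I receptor for BMP9 and BMP10, had 5.47, 5.37, 5.65 and 5.87. Smad6, an inhibitor that BMP signalling induces, had 4.23, 3.86, 3.87 and 4.67, and Eng, the co-receptor endoglin, had 4.05, 3.70, 3.91 and 4.55. Bmpr2, the type II receptor, had 0.97, 1.00, 1.40 and 1.83. All 4 genes were highest in rat 4. Bmpr1a was the only member not above background throughout, passing on 3 arrays, with −2.91, −6.01, −1.59 and −3.83 and its low value in rat 2.

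Lists of vessel subtypes differed in which rat was high. The 10 general capillary genes had a median percentile of 82.2 ± 2.18 (SD, n = 4), led by Cd93, by Hpgd, a prostaglandin-degrading enzyme, with 3.20, 3.59, 3.68 and 4.09, and by Gpihbp1, the anchor of lipoprotein lipase, with 2.07, 2.11, 1.76 and 2.58. Rat 4 was highest in 9 of the 10. The 11 aerocyte genes had a median percentile of 87.2 ± 1.78 (SD, n = 4). Car4, a carbonic anhydrase, had 4.75, 4.48, 5.19 and 5.17. Apln, the ligand of the receptor that general capillary cells carry, had 4.26, 4.14, 4.80 and 4.69. Emp2, a membrane protein also found on alveolar type 1 cells, had 4.23, 4.00, 5.03 and 4.67. These 3 genes were highest in rat 3 and lowest in rat 2, as was the mean of the list, and 8 of the 10 members above background on all 4 arrays were highest in rat 3. Fibin, a secreted factor, was the widest of those with −1.34, −3.08, −0.97 and −2.49. The mean of the 10 aerocyte genes spanned 0.91 log2 units between rats 2 and 3, and without rat 3 it spanned 0.55. The alveolar type 1 genes described below had the same high and low rats, and the part of such cells in the aerocyte values was not tested.

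Of 14 arterial genes 13 were above background on all 4 arrays, with a median percentile of 70.5 ± 2.40 (SD, n = 4). Mgp, an inhibitor of calcification and BMP signalling, had 5.44, 4.96, 5.79 and 5.59. Gja4, connexin 37, had 3.23, 3.02, 3.35 and 3.87. Cxcl12, a chemokine of arterial endothelium, had 3.09, 2.84, 2.63 and 3.68, lowest in rat 3, but −0.09, −1.35, 0.74 and −0.34 on a dimmer probe, highest in rat 3. Rat 4 was highest in 10 of the 13. Bmx, a cytoplasmic tyrosine kinase, had −0.69, −0.64, −2.94 and −0.91 and was low in rat 3 alone. The 6 measured venous genes had a median percentile of 88.1 ± 1.45 (SD, n = 4). Vcam1, a leukocyte adhesion molecule, had 2.64, 2.23, 1.99 and 2.54. Slc6a2, the noradrenaline transporter, had 2.10, 1.93, 1.92 and 3.21, with rat 4 apart from the other rats.

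The lymphatic list had a median percentile of 75.4 ± 1.88 (SD, n = 4) over 9 genes. Ccl21, the chemokine that draws dendritic cells and lymphocytes into lymphatics, had 6.12, 6.12, 5.80 and 5.94. Lyve1, a hyaluronan receptor, had 2.96, 3.11, 3.26 and 3.77, and Pdpn, podoplanin, had 2.84, 2.83, 3.06 and 2.85. Prox1, the factor that defines lymphatic identity, was dim, at −4.49, −4.92, −5.90 and −5.39 and a mean percentile of 36.4. Foxc2, a factor of lymphatic valves, had −2.13, −2.15, −4.48 and −2.18, low in rat 3 alone. Among adhesion molecules Icam1 was nearly level, at 2.97, 2.81, 3.03 and 2.86. Sele, the selectin of activated endothelium, had −0.64, −1.13, −2.56 and −0.40, again lowest in rat 3. Selp, P-selectin, was above background on 1 array, at a mean percentile of 27.4.

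**Figure D2:**
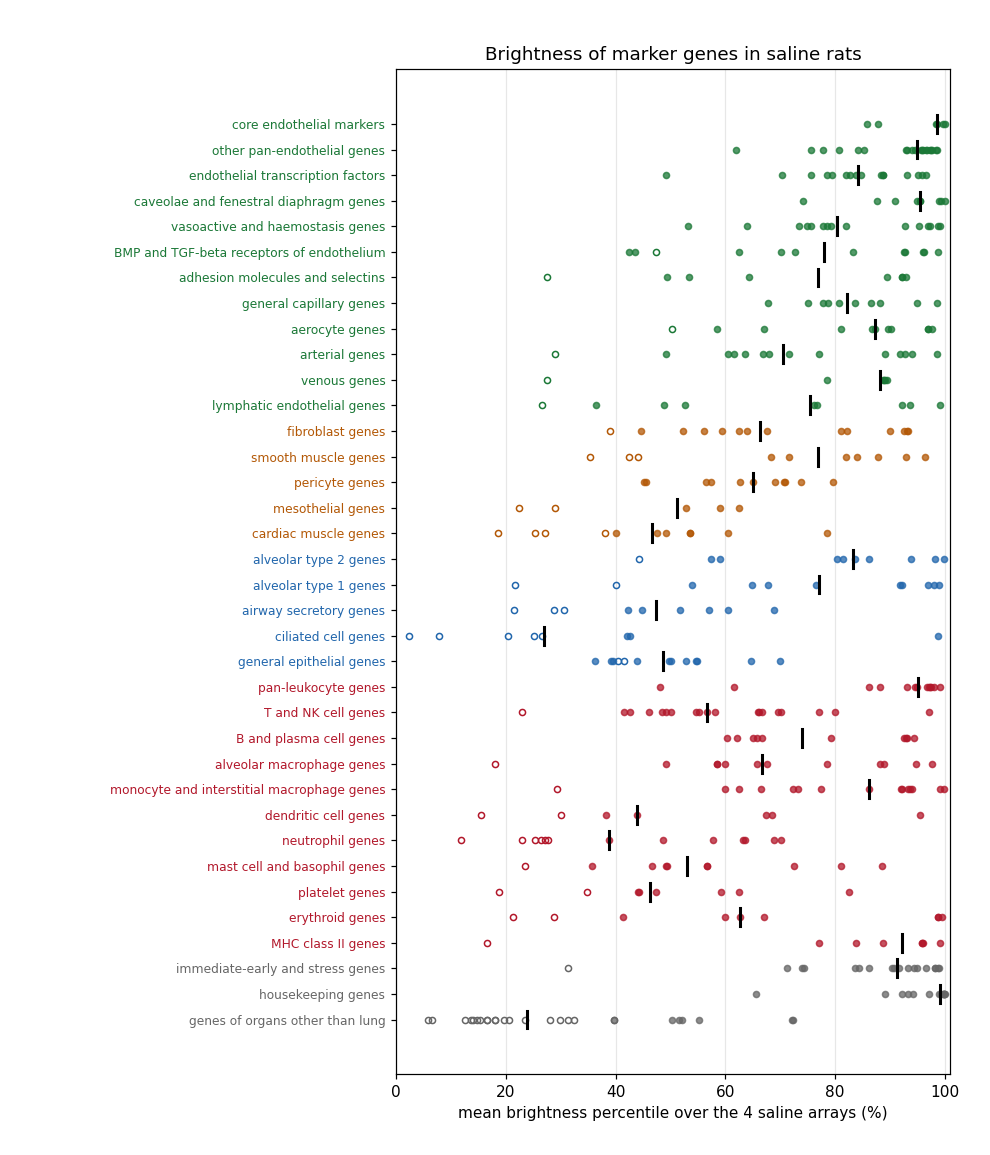
Mean brightness percentile over the 4 saline arrays (x axis, percent) of each measured gene in 36 marker lists (y axis). Filled points were well above background on all 4 arrays and open points on fewer, and the black bar is the list's median. Core endothelial markers (98.5), pan-leukocyte genes (95.1) and housekeeping genes (99.1) lie at the right, and genes of organs other than lung (23.8) at the left.

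The brightest genes overall were mostly genes of general cell function, with a few lineage genes among them. Leaving out ribosomal protein genes and provisional names, the brightest 20 included cytoskeletal genes (Myl6, Actg1, Actb and Tmsb4x), ferritins (Ftl1 and Fth1), the ubiquitin gene Ubb, Ppia, Tpt1, Hspa8, Ctsd and the MHC class I gene RT1-A1. Beside Plvap and Kdr stood Sparc, a matrix-binding protein made by endothelium and fibroblasts, with 6.39, 6.34, 6.58 and 6.83 in rats 1 to 4. Ifi27, an interferon-inducible gene, had 6.44, 6.69, 6.44 and 6.75. Lyz2, lysozyme of macrophages and alveolar type 2 cells, had 6.81, 7.53, 6.75 and 6.80, high in rat 2. Probes of a gene can disagree here: Twnk, the mitochondrial helicase, had a mean of 6.64 on the probe used and of −2.59 on its other probe, both well above background on all 4 arrays.

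Stromal genes were detected and varied far more between rats than endothelial genes. Of 51 measured stromal genes 41 were well above background on all 4 arrays, and 30 of these 41 had a range of at least 2-fold over the rats. In comparison 18 of 118 endothelial genes did, and 2986 of 17389 genes in all (17.2%), or 1922 without rat 4. A range of 4-fold or more was found in 23 stromal and 5 endothelial genes, against 585 genes in all (3.36%). Rat 3 was the highest in 27 of the 41 stromal genes and rat 2 the lowest in 26, where rat 3 was the highest in 20.5% of all genes and rat 2 the lowest in 27.7%. Without rat 2, 33 of 46 stromal genes had at least a 2-fold range and 12 at least a 4-fold range, and without rat 3 these were 24 and 12 of 41. Endothelial genes with a 2-fold range numbered 6 without rat 3. Rat 2 also had the lowest array signal, whose part in the stromal values and in the epithelial values below was not tested.

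Fibroblast genes showed this most. Mfap4, a microfibril protein of elastic tissue, had 1.67, −1.44, 3.57 and 1.04 in rats 1 to 4, a 32.2-fold range. Col1a2, a chain of type I collagen, had 4.27, 1.77, 4.57 and 2.98. Col3a1, type III collagen, had 3.84, 1.90, 4.59 and 2.64. Pdgfra, the PDGF receptor of lung fibroblasts, had −1.56, −4.30, 0.52 and −2.31. All 4 genes ran in the order rat 3, rat 1, rat 4, rat 2. Fn1, fibronectin, which endothelial cells and macrophages also make, kept to a narrower range with 3.57, 3.05, 3.09 and 2.93. Over the 13 fibroblast genes above background on all 4 arrays the mean lay 0.58 above, 1.54 below, 1.44 above and 0.47 below the mean of the 4 rats, a span of 2.98 log2 units. Without rat 2 the span was 1.95 over 14 genes, and without rat 3 it was 2.12.

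The smooth muscle and pericyte lists had the same high and low rats, and the mesothelial and cardiac muscle lists did not. Tagln, an actin-binding protein of smooth muscle, had 1.69, −0.68, 2.93 and 1.03. Actg2, the enteric smooth muscle actin, had 2.33, 0.83, 3.51 and 1.85. Mylk, myosin light chain kinase, had 3.12, 2.25, 3.86 and 3.28. All 7 smooth muscle genes above background on all 4 arrays were highest in rat 3 and lowest in rat 2. Synm, synemin, was bright on the probe used, with a mean of 4.19, and dim on its other probe, with a mean of −2.95. Among 11 pericyte genes the range was mixed: Postn, periostin, had −2.60, −3.37, 0.10 and −3.23, and Pdgfrb, the PDGF receptor of pericytes, had −1.27, −2.22, 0.52 and −1.42. Rgs5, a regulator of G protein signalling, had 0.81, 0.79, 0.23 and 1.20, lowest in rat 3, and Notch3 had a range of 0.17. Of the 11 pericyte genes 6 were highest in rat 3. Mesothelial genes were dim, with Upk1b at −0.97, −0.50, −1.77 and −2.56, and the mean of the 3 above background on all 4 arrays was highest in rat 3 and lowest in rat 4. Cardiac muscle genes mark the myocardial sleeves of pulmonary veins in rodents. Of these 11 genes 3 (Myh7, Actn2 and Nppa) were above background on none of the arrays, near the 25.1% of all genes. Over the 7 above background on all 4, the mean differed from that of the 4 rats by 0.32, 0.07, −0.24 and −0.15, highest in rat 1 and lowest in rat 3. Myl7, an atrial myosin light chain and the widest of the list, had −2.23, −3.15, −4.67 and −2.82. Actc1, cardiac actin and the brightest, had 0.99, 0.08, 1.46 and 0.01, and was the only 1 of the 7 highest in rat 3.

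Epithelial genes varied in the same rats. Of 51 measured epithelial genes 38 were above background on all 4 arrays, 28 of these had a range of at least 2-fold and 19 of at least 4-fold, with rat 3 the highest in 24 and rat 2 the lowest in 28. Without rat 2, 30 of 42 had a 2-fold and 14 a 4-fold range, and without rat 3 these were 22 and 12 of 38. Sftpc, the surfactant protein made by alveolar type 2 cells, had 6.82, 3.51, 6.90 and 5.60 and a mean percentile of 98.2. Sftpb, which organises the surfactant film, had 3.24, −0.54, 4.08 and 1.67, a 24.6-fold range. Sftpa1, a surfactant collectin, had 2.43, −1.82, 2.66 and 0.88. These 3 genes ran in the order rat 3, rat 1, rat 4, rat 2. Napsa, a protease that processes surfactant protein B, ran otherwise, with 3.74, 4.01, 3.18 and 2.67. Nkx2-1, the transcription factor of lung epithelium, had −1.87, −4.64, −0.12 and −3.49. The mean of the 9 alveolar type 2 genes spanned 2.09 log2 units, and without rat 2 the span was 1.33 over 10 genes. In 6 of the 9 rat 3 was the highest and in 7 rat 2 the lowest, and the list's median percentile was 83.2 ± 11.3 (SD, n = 4) over the 10 measured.

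Alveolar type 1 genes split between members shared with endothelium and the rest. Cav1, Clic5 and Vegfa, which endothelial cells or other lung cells also express, had ranges of 0.56, 0.85 and 0.61. Aqp5, a water channel of type 1 cells, had −3.16, −4.48, 0.09 and −3.02. Ager, the receptor RAGE and a defining type 1 marker, had −1.23, −2.68, 0.90 and −1.56. Both were highest in rat 3 and lowest in rat 2. In the airway secretory list rat 1 stood highest: Scgb1a1, the club cell secretory protein, had 0.32, −1.98, −0.03 and −0.86, and Bpifa1, an airway host defence protein, had 0.16, −4.12, −3.48 and −1.34. Ciliated cell genes were mostly near background, with 3 of 8 above it on all 4 arrays and Foxj1, the master factor of motile cilia, on 2. Tppp3 was the exception at 5.45, 5.48, 5.83 and 5.88, and was level over the rats. General epithelial genes had a median percentile of 48.6 ± 9.45 (SD, n = 4) with Krt18, a keratin, at −0.42, −2.78, 0.08 and −1.57, and Epcam passed on 3 arrays, with −2.86, −7.85, −1.86 and −4.25.

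**Figure D3:**
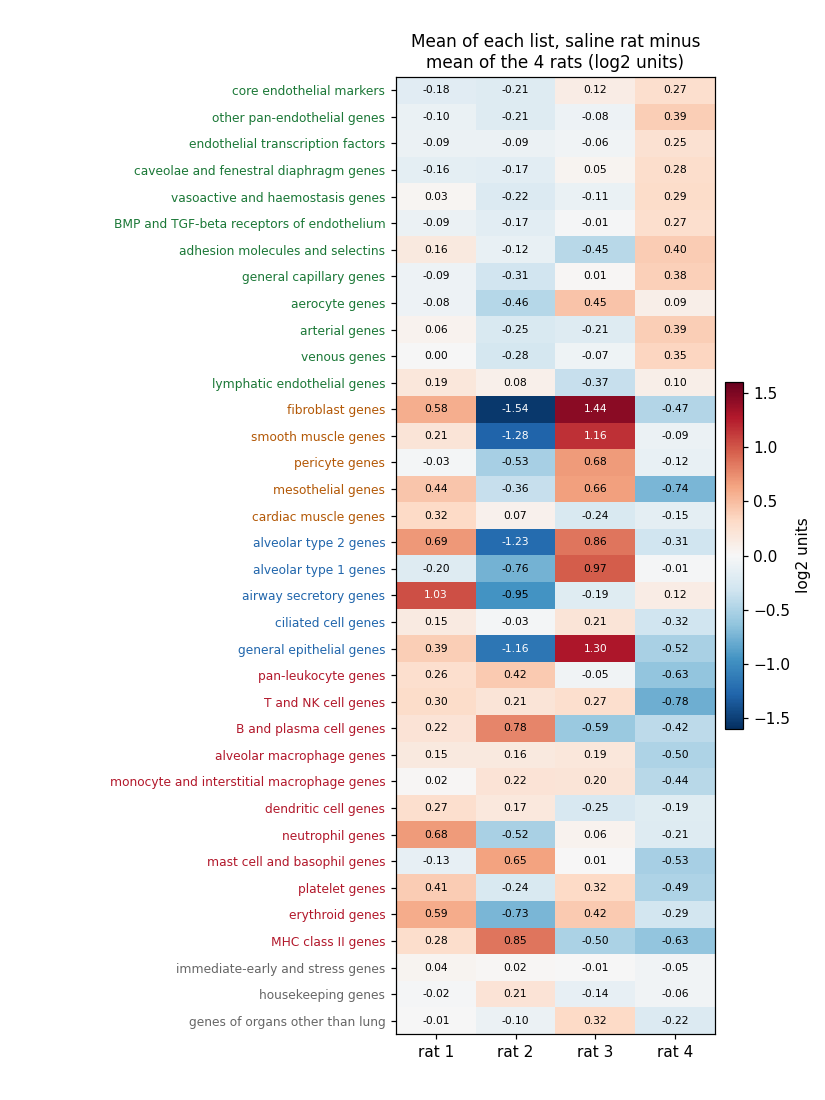
Mean scaled log2 signal of each marker list in each saline rat (columns) minus the mean of the 4 rats, in log2 units, over list members well above background on all 4 arrays (red above, blue below). The fibroblast, smooth muscle, alveolar and general epithelial lists are lowest in rat 2 and highest in rat 3, 7 of the 11 blood lists are lowest in rat 4, and 10 of the 12 endothelial lists are highest in rat 4.

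Blood cell genes varied in a different set of rats and ran from bright to dim by list, with a median percentile of 66.2 ± 2.92 (SD, n = 4) over 123 measured genes. Of the 123 genes 106 were above background on all 4 arrays. A range of at least 2-fold was found in 79 of these, where 17.2% of all such genes had one. A 4-fold range was found in 4 of the 106, near the 3.36% of all genes. Rat 4 was the lowest in 67 of the 106, where it was the lowest in 25.9% of all genes, and rat 2 the highest in 52, where it was the highest in 38.0% of all. Without rat 4, 35 of the 106 had at least a 2-fold range, and without rat 2, 54 genes did.

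The pan-leukocyte list had a median percentile of 95.1 ± 1.89 (SD, n = 4) over 13 genes. Laptm5, a lysosomal protein of blood cells, had 6.22, 6.57, 6.19 and 5.37. Arhgdib, an inhibitor of small GTPases in leukocytes, had 5.34, 5.82, 4.61 and 4.61. Lcp1, the actin-bundling plastin of leukocytes, had 5.10, 5.28, 4.88 and 4.19. In 10 of the 13 genes rat 2 was the highest and in 10 rat 4 was the lowest, though after quantile normalization the list's mean was highest in another rat. The list's mean spanned 1.04 log2 units, and 0.47 without rat 4. Ptprc, the common leukocyte antigen CD45, had 3.57, 3.87, 2.97 and 2.39, a range of 1.48.

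B cell and antigen presentation genes were highest in rat 2. Cd79b, a chain of the B cell receptor complex, had 3.47, 4.19, 2.58 and 2.62. Pou2af1, a B cell transcriptional coactivator, had 3.57, 4.05, 2.32 and 2.85. All 10 measured B and plasma cell genes were highest in rat 2, where rat 2 was the highest in 38.0% of all genes. Cr2, a complement receptor, was the widest at −0.49, 0.20, −2.26 and −1.48. Of these 10 genes 8 had a 2-fold range, and 5 without rat 2, when the span of the list's mean was 0.81 in place of 1.37. All 7 MHC class II genes above background on all 4 arrays were highest in rat 2 too: Cd74, the invariant chain, had 6.09, 6.80, 5.54 and 5.45, RT1-Db1, a class II beta chain, had 4.42, 5.06, 3.54 and 3.52, and Ciita, the class II transactivator, had 0.88, 1.53, −0.42 and −0.16. The class II mean spanned 1.48 log2 units, and 0.91 without rat 2, while 1 of the 7 genes then kept a 2-fold range. RT1-Ba, a class II alpha chain, was above background on none of the arrays. The part of rat 2's low array signal in these values was not tested.

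T and NK cell genes were dimmer, with a median percentile of 56.7 ± 3.45 (SD, n = 4), and low in rat 4. Cd3d, a chain of the T cell receptor complex, had 0.90, 1.38, 1.22 and −0.12, and Cd3g, another such chain, had 0.53, 0.95, 0.82 and −0.65. Rat 4 was the lowest in 17 of the 18 genes above background on all 4 arrays. The exception was Tbx21, with 4.25, 5.21, 4.37 and 4.67, read by 1 probe, whose mean percentile was 97.2 where the next in the list, Cd3d, had 80.0. Without rat 4, 2 of the 18 genes had a 2-fold range, against 15 with it, and the span of the list's mean went from 1.07 to 0.09.

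Macrophage and monocyte genes were bright in part. C1qb, a complement chain of tissue macrophages, had 3.12, 3.34, 3.90 and 2.90, and Ccl24, a chemokine, had a range of 0.31. Gpnmb, a lysosomal glycoprotein, had 3.91, 4.07, 4.00 and 2.84, low in rat 4, as were 9 of the 11 alveolar macrophage genes above background on all 4 arrays. Marco, a scavenger receptor used as an alveolar macrophage marker, was above background on none. Cd83, a marker of mature dendritic cells and activated B cells, had 4.37, 4.39, 3.41 and 3.35. Neutrophil genes were dim, and 4 of the 7 above background on all 4 arrays were highest in rat 1, as 14.3% of all genes were. S100a9, a calcium-binding protein of granulocytes, had 0.65, −2.15, −0.40 and −0.59. Camp, a cathelicidin, was highest in rat 3 and low in rat 4, and Lcn2, a lipocalin, was highest in rat 4 with −0.30, −0.17, −1.20 and −0.16. Of the list 5 of 13 (Mmp8, Mmp9, Ltf, Ngp and Elane) were above background on none of the arrays, against 25.1% of all genes. Mast cell and basophil genes were highest in rat 2 in 8 of 9, against 38.0% of all genes. Mcpt8, a basophil protease, had 1.80, 2.88, 2.19 and 1.93.

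Red cell and platelet genes were mostly highest in rat 1. Hba-a1, an alpha globin, had 6.75, 5.89, 6.66 and 6.07, and Hbb, a beta globin, had 6.21, 5.20, 6.10 and 5.39, with a near copy, Hbb-b1, whose probes may share its signal. All 7 erythroid genes above background on all 4 arrays were lowest in rat 2. Pf4, platelet factor 4, had 1.73, 0.78, 1.69 and 0.55, and 5 of the 6 platelet genes above background on all 4 arrays were highest in rat 1, as were 6 of those 7 erythroid genes, against 14.3% of all genes.

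Sequences upstream of the genes were set beside these groups. Most pan-leukocyte genes were lowest in rat 4 (10 of 13, against 25.9% of all genes). Most alveolar type 2 genes were lowest in rat 2 (7 of 9, against 27.7%). A reference promoter is 1 sequence per gene, so it cannot bear on which rat was lowest. RefSeq promoters of GRCr8 (300 bases around each gene's start, most of them upstream) were searched on both strands for AGGAAG, a core of ETS factor sites (reverse complement CTTCCT), and for CTCAAG, a core of NKX2-1 sites (reverse complement CTTGAG). ETS factors include Erg and Fli1 in endothelium and PU.1 in blood cells. AGGAAG was in 34.5% of 33469 promoters, in 39 of 95 from the endothelial lists (41.1%), in 19 of 44 from the epithelial lists (43.2%), in 15 of 42 from the stromal lists (35.7%), in 64 of 103 from the blood lists (62.1%) and in 5 of 7 from the pan-leukocyte list. CTCAAG was in 15.8% of all promoters, in 13 of 44 from the epithelial lists (29.5%), of which the alveolar type 2 list gave 2 of 9, in 9 of 42 from the stromal lists (21.4%), in 17 of 103 from the blood lists (16.5%) and in 12 of 95 from the endothelial lists (12.6%). A match is a description of the letters and not a binding site. The promoters of the brightest core endothelial gene, the brightest pan-leukocyte gene and the widest alveolar type 2 gene are shown, with each match to either word in capitals, the first at chr16:18231230-18231529 on the minus strand, the second at chr5:148371630-148371929 on the plus strand and the third at chr4:105917338-105917637 on the plus strand.
Plvap: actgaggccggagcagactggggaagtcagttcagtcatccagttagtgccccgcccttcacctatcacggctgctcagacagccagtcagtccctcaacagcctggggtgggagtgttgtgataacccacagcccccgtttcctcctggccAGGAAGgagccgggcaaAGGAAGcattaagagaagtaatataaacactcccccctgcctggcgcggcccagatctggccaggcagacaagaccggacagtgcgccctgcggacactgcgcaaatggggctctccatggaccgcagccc
Laptm5: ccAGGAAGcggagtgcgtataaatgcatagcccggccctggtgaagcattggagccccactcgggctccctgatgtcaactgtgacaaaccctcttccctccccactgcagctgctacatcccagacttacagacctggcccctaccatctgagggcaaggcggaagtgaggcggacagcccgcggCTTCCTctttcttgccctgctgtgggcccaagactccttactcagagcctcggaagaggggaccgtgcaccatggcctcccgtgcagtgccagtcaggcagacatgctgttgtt
Sftpb: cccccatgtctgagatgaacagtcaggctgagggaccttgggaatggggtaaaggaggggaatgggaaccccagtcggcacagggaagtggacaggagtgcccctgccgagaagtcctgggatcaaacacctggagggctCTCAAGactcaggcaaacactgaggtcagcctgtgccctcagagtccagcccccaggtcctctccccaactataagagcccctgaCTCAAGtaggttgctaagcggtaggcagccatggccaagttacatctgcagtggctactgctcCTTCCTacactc
Plvap and Laptm5 each held 2 matches to AGGAAG, those of Laptm5 on opposite strands, and Sftpb held 2 matches to CTCAAG and 1 to AGGAAG, read as CTTCCT. The ETS word was searched with endothelium in view, and its share in blood promoters was seen afterwards.

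Of the 36 lists, the immediate-early and stress list had the smallest span of its mean on the scale used. After quantile normalization the housekeeping list had a smaller one, 0.11 against 0.14. Among 17 immediate-early and stress genes above background on all 4 arrays, which tissue digestion is known to induce, 1 had a 2-fold range and the list's mean spanned 0.10 log2 units. That span was 0.04 without rat 1, 0.05 without rat 4 and 0.18 with arrays scaled to their median. Junb, an AP-1 factor, had 5.83, 5.77, 5.81 and 5.66, Ier2 had 5.48, 5.58, 5.55 and 5.77, and Fos had 2.87, 3.04, 2.58 and 2.75. The median percentile of that list was 91.2 ± 0.31 (SD, n = 4). Of 14 housekeeping genes 0 had a 2-fold range, and 11 were highest in rat 2 on this scale but 1 after quantile normalization. Of all genes 38.0% were highest in rat 2 on this scale. The 78 ribosomal protein genes above background on all 4 arrays, a list added after values were seen, were all highest in rat 2 on this scale, and 48 of them after quantile normalization. Their means lay 0.07 below, 0.44 above, 0.24 below and 0.13 below the mean of the 4 rats. The median range of these ribosomal genes was 0.67, wider than that of all genes. The low array signal of rat 2 moves with both lists, and its part in them was not tested. Of 26 genes of organs other than lung 7 were above background on all 4 arrays and 13 on none, among them Alb, Fgb, Syt1 and Prl. Over all genes those shares were 64.7% and 25.1%.

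Over the 17389 genes above background on all 4 arrays, the median range between the rats was 0.51 log2 units. It was 0.65 over the core endothelial markers and 0.72 over the 118 endothelial list genes, both wider than over all genes. Repeat spots of 11848 probes within an array had a median SD of 0.0636, and the SD between rats had a median of 0.221 and was the larger in 91.2% of these probes. Repeat spots share 1 labelled sample, so this sets spotting error alone beside the rats and leaves out isolation, amplification and labelling. Without rat 4 the genes with at least a 2-fold range numbered 1922, against 2986 with it. Without rat 3 those with at least a 4-fold range numbered 274, against 585. Since leaving out a rat cannot widen a gene's range, a fall in such counts is built in. The 2-fold genes ran most often in the order rat 2, 1, 3, 4 (535 genes, 17.9%) and next in the order rat 3, 1, 4, 2 (459 genes, 15.4%). Cd74, RT1-Db1 and Ptprc ran in the former order, and the collagen and surfactant genes named above in the latter. Of the 585 genes with at least a 4-fold range, 270 (46.2%) had the order rat 3, 1, 4, 2, rat 3 was the highest in 364 (62.2%) and rat 2 the lowest in 347 (59.3%).

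Of the 20 widest genes with a symbol 16 carried that same order. Aoc1, a diamine oxidase, had −1.65, −4.24, 1.47 and −2.83, a 52.1-fold range. Lgi3, a secreted leucine-rich protein, had 0.86, −2.76, 2.82 and −0.98. In both rat 3 was the highest and rat 2 the lowest. Another 3 of the 20 were high in rat 4 alone: Serpina3n, an acute-phase protease inhibitor, had −1.36, −1.68, −2.70 and 2.18, Mrgprf, an orphan receptor, had −3.92, −5.59, −3.30 and −0.82, and Fam111a, a protease, had −4.67, −5.20, −3.64 and −0.36. The other probe of Fam111a gave −4.41, −5.75, −4.02 and −0.05. The widest 200 were taken from 10532 genes with a symbol above background on all 4 arrays. They held 17 of 41 such stromal list genes, 14 of 38 epithelial, 1 of 106 blood and 0 of 118 endothelial. At 200 of 10532, few blood or endothelial list genes would be among them in any case.

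Second probes bore on how far single-probe ranges can be read. Where the brightest probe had a range of 4-fold or more, the second probe of the gene had the same highest rat in 89.7% of 29 genes and the same lowest rat in 79.3%. With ranges of 2-fold to 4-fold the shares were 73.7% and 77.1% of 205 genes, and under 2-fold they were 51.5% and 53.0% of 1541 genes. Most endothelial genes had ranges under 2-fold. Their list means rest on 1 probe per gene, over 5 genes (venous) to 20 (other pan-endothelial). Of the 12 endothelial lists 10 were highest in rat 4, all but the aerocyte and lymphatic lists. Some genes, Plvap, Cd93 and Erg among them, are on more than 1 endothelial list, so the lists are not separate readings. Those 10 lists kept rat 4 highest under each of 7 other processing settings. Endothelial genes with at least a 2-fold range numbered 18 of 118, but 33 when arrays were scaled to their median, 12 of 120 without rat 2 and 6 of 118 without rat 3. Rat 3 was low for 4 of the 5 endothelial genes with a 4-fold range, Bmx, Foxc2, Sele and Madcam1.

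**Figure D4:**
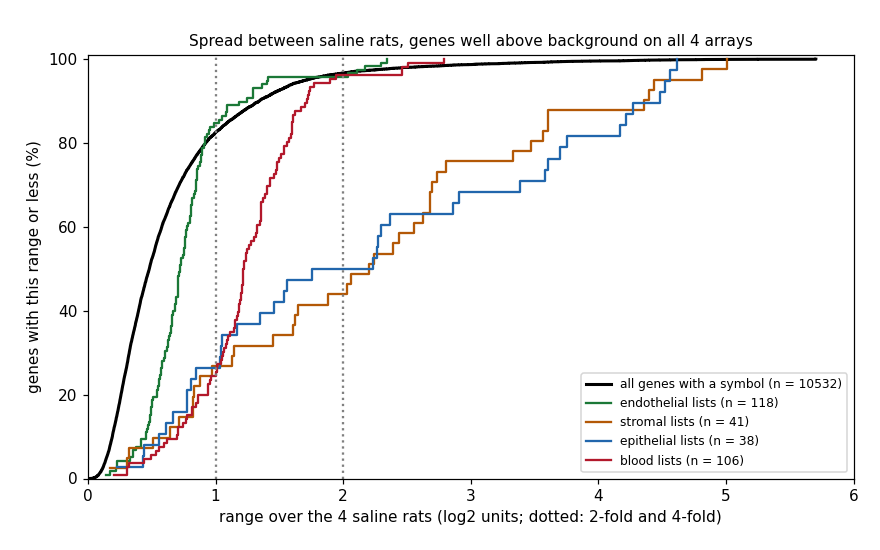
Share of genes (y axis, percent) with a range over the 4 saline rats up to the value on the x axis (log2 units; dotted lines at 2-fold and 4-fold), for genes well above background on all 4 arrays. Of all 10532 such genes with a symbol 17.5% lie beyond 2-fold, against 18 of 118 on endothelial lists, 79 of 106 on blood lists, 30 of 41 on stromal lists and 28 of 38 on epithelial lists.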

How the data were processed

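RNA of 4 saline rats was read on 1-colour arrays, 1 per rat, after amplification of 10 ng of RNA and marking with Cy3, per the labels' protocols. Per the file headers, the deposited processed signals are an intensity, background-subtracted and detrended within each array by Agilent Feature Extraction 10.7.3.1 and not scaled between arrays. Per the file headers, the flag columns hold other values, 0 or 1 per spot. The authors' value table holds log2 values, logged once more, with a median of 3.02 in each column and the same ranks over spots as the processed signals. For limma 3.6.9, named in the submitters' processing notes, no role is given.

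From the processed signals, 4259 control spots and spots with an outlier flag were left out and the 1 to 10 spots of a probe averaged, which kept 30355 of 30367 probes. Log2 values were set to 0 at each array's 75th percentile. A probe was well above background where a share of at least 0.5 of its spots was. Accessions named 17996 probes in RefSeq, and 12359 stayed unnamed. The brightest probe stood for a gene, giving 26895 genes, 15153 of them with a symbol. A list's value in a rat is the mean of its members above background on all 4 arrays.

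Python 3.11.15 with numpy 2.4.6, pandas 2.3.3, scipy 1.17.1 and matplotlib 3.10.9 was used, with R 4.3.3, data.table (version 1.17.8) and limma 3.58.1 for normexp (offset 50, on median spot signals). The pipeline was tested on simulated data.

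The 36 lists (452 genes, 400 measured) and all members were chosen with earlier results of these data known. They fall into endothelial, stromal, epithelial and blood groups and a group of the remaining lists. Of the genes 6 were in more than 1 of these groups, Nr4a1 through the group of the remaining lists. Named were the core markers, the brightest 20 and widest 20 genes, the 3 brightest and the widest member of each list, the 5 steadiest endothelial genes and members above background nowhere. Provisional and ribosomal protein names were left out of the brightest, and a few genes that the rule takes are not reported here. Other genes named (among them Pdgfrb, Sftpa1, Ager, Scgb1a1, Krt18, Epcam, Ptprc, Cd34, Bmpr2, Prox1, Sele, Madcam1, Foxj1, Notch3, Marco and those added in the plots) were chosen after their values were seen, as were the ribosomal list, the promoter choice of Laptm5 and the counts by compartment without each rat.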

Additional observations from a re-analysis of the deposited data

Results flagged for a closer look

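In 16 of 159 named genes and 3 of 36 marker lists, 1 of the 4 rats stood apart: the gap between it and its nearest neighbour, as a share of the whole range, was above Dixon's critical value for 4 samples. Chance alone gives about 1 in 20, and these genes were named partly for their range or brightness. Rat 2 was the high one for several of the brightest genes, with shares of 0.926 for Ceacam9, 0.920 for Lyz2, 0.938 for Tmsb4x, 0.838 for Twnk and 0.871 for Actb. Rat 2 was the low one for Tie1 (0.848). Rat 4 was high for Cav1 (0.837) and Slc6a2 (0.860), and low for Gpnmb (0.876), Camp (0.959), a cathelicidin of neutrophils, and Cela1 (0.885), a pancreatic elastase. Rat 3 was low for Bmx (0.880), Foxc2 (0.981) and Lcn2 (0.864), a lipocalin of neutrophils, and high for Pdpn (0.901). Rat 1 was low for Cox4i2 (0.912), a cytochrome oxidase subunit of pericytes. Among the lists, rat 4 was high for the endothelial transcription factors (0.906) and low for the T and NK cell genes (0.920) and the alveolar macrophage genes (0.946).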

How the results depend on the processing

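No paired analysis was possible because the values come from 1 group with no test. The number of genes with at least a 2-fold range was 2986 in the analysis reported, 1972 after normexp correction and 4963 when genes above background on at least 1 array were admitted. It was 1922 to 2798 when each rat was left out in turn, lowest without rat 4. The median percentile of the core endothelial markers was 98.5, and 98.02 when ranked among genes above background on at least 1 array. That filter shifted the other lists more, from 66.2 to 54.9 (fibroblast), 83.2 to 77.6 (alveolar type 2) and 95.1 to 93.4 (pan-leukocyte). The count of genes above background on all 4 arrays has no value under that last filter. Across quantile normalization, median scaling, probe means, kept outlier spots and the deposited table, none of those counts and percentiles, nor the fibroblast, alveolar type 2 and pan-leukocyte percentiles, moved beyond the limit set for them. For a percentile, a range or a list's span that limit was its SD over the rats. That SD was wide for the fibroblast (13.4) and alveolar type 2 (11.3) percentiles. Ranges of named genes moved beyond it in 27 of 159 after quantile normalization. Without rat 2 they did so in 37 and without rat 4 also in 37. Of 36 list spans 14 moved without rat 4. Percentiles are ranks within an array, and the count above background rests on the scanner's flags. Quantile normalization and median scaling leave ranks and flags as they are, and the deposited table keeps the ranks over spots. Those settings therefore do not test the percentiles or that count. The count of genes with a 2-fold range could move, and was 2960 to 3081 over the settings just named. Array medians lay at −3.02, −3.07, −2.97 and −3.20 on the scale used, which median scaling sets equal. Over 7 settings the fibroblast, smooth muscle, pericyte, alveolar type 1 and 2, general epithelial and aerocyte lists kept rat 3 highest and rat 2 lowest. The lowest rat of the core endothelial, caveolar and MHC class II lists was another under median scaling. Signal near background limits the dim lists: the span of the ciliated genes ran from 0.26 to 1.59 over the settings.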

Other observations

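Several of the genes with the widest ranges over the saline rats were on no marker list. Slc7a10, a neutral amino acid transporter, had scaled log2 signals of 0.18, −2.86, 2.37 and −0.97 in rats 1 to 4, and Slc38a5, another amino acid transporter, had 0.52, −2.21, 2.45 and −0.27. Ces1d, a carboxylesterase, had 1.27, −1.48, 3.35 and 0.67, and Dpep1, a membrane dipeptidase, had 0.90, −2.08, 2.40 and −0.28. Adra1b, an alpha adrenergic receptor, had −1.61, −4.72, −0.08 and −3.02. Atp6v1c2, a proton pump subunit, had −3.01, −5.23, −0.66 and −4.03, Eps8l1, an actin regulator, had −2.17, −4.09, 1.16 and −3.70, and Lrrn3, a leucine-rich repeat protein, had −2.56, −5.31, −0.47 and −3.25. Each of these genes was highest in rat 3 and lowest in rat 2. Ceacam9, a member of the carcinoembryonic antigen family, was among the brightest genes with 7.24, 7.74, 7.27 and 7.27 on its 1 probe.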
